A study of Mus musculus with 12 samples.

Results

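The enzymes and regulators of hepatic de novo lipogenesis described here are 10 genes: Srebf1, Mlxipl, Acly, Acaca, Acacb, Fasn, Scd1, Me1, Pklr and Thrsp. All probe sets whose single symbol in the platform annotation is one of these genes were taken, which gave 23 of the 45101 probe sets on the array. Of these, 18 passed a filter on dim signals (above the array median on at least 3 of 12 arrays) and 5 did not, so that each of the 10 genes kept at least 1 probe set. The dim ones were 3 of the 6 for Acly, 1 of the 2 for Acacb and 1 of the 3 for Thrsp.

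De novo lipogenesis turns carbohydrate carbon into fatty acids in the cytosol of the hepatocyte. Glycolysis ends at pyruvate kinase, citrate from the mitochondrion is split to acetyl-CoA, acetyl-CoA is carboxylated to malonyl-CoA, and fatty acid synthase builds palmitate from these with NADPH from malic enzyme and the pentose phosphate pathway; stearoyl-CoA desaturase then makes monounsaturated fatty acids. In liver the pathway is known to be driven by insulin through SREBP-1c and by glucose through ChREBP, and polyunsaturated fat is known to restrain it.

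Liver RNA was from adult females on a B6.129 background, in 4 groups of 3 samples with 1 array each. The αERKO high-fat and αERKO normal groups lack the estrogen receptor alpha gene (Esr1-/-), and the WT high-fat and WT normal groups are Esr1+/+. High-fat groups received a diet with 60 kcal% fat and normal groups NIH-31 diet, in both cases for 2 weeks. The labels name no tissue-restricted driver for the knockout, and whether each sample was its own animal is not stated there. The p-values therefore speak only of the scatter among these arrays, which could be technical. How far the diets differ in carbohydrate or other ingredients was not used here, so diet differences are between the diets as a whole. Since these are bulk liver samples, fewer cells of a type and less RNA per cell cannot be told apart.

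The values are MAS5 signals (linear, with no unit), which had been scaled so that the trimmed mean was 500 on each array. Esr1, which checks the genotype labels, averaged 802 ± 121 in αERKO high-fat and 623 ± 51.2 in αERKO normal livers, against 3343 ± 291 in WT high-fat and 2777 ± 1026 in WT normal livers (SD, n = 3 each), and the αERKO and WT values did not overlap on either diet. All 8 hepatocyte markers were above the filter. The summed signal of the 8 ranged from 314637 to 370428 in αERKO high-fat, 331867 to 400372 in αERKO normal, 361488 to 411885 in WT high-fat and 422562 to 457097 in WT normal livers, so that the WT normal arrays stood above all others. All 8 had a negative diet difference in WT, with 0 called by limma. Of the 8, 2 had an unadjusted p under 0.05, as did 1015 of the 12264 genes kept. For genotype on normal diet 7 of 8 had a negative difference, of which Alb was called (-0.50 ± 0.10, adjusted p = 0.0266). Lower member values set against WT normal livers stand beside this shift, and its part in them was not tested. Some arrays also carried transcripts of pancreas (αERKO normal replicate 1, WT high-fat replicates 2 and 3, WT normal replicate 2) or skeletal muscle (αERKO high-fat replicate 2, αERKO normal replicate 1), and results that rest on them are given with and without them.

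Promoters of 3 members are shown because Pklr and Thrsp are the genes that rose on the high-fat diet over both genotypes (below), while Fasn, the central synthase, was not called. Each window runs from 250 bases before to 50 after an annotated start, in RefSeq sequence of GRCm38.p6. It is chr3:89136373-89136672 (plus strand) for Pklr, the second of the 2 windows of this gene, chr7:97417501-97417800 (minus strand) for Thrsp and chr11:120824498-120824797 (minus strand) for Fasn. Capitals mark matches to the motifs named in the next paragraph.
Pklr: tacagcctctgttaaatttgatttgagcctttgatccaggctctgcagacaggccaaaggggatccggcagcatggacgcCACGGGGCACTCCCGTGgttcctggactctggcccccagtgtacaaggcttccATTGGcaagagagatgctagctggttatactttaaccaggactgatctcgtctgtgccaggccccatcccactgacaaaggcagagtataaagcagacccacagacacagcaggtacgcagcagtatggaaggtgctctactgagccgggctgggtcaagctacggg
Thrsp: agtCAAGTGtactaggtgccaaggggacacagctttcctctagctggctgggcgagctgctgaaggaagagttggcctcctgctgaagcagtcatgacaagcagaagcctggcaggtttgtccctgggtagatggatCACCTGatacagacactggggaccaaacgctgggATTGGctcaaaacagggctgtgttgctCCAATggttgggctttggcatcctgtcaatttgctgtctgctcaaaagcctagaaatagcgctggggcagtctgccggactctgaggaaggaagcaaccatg
Fasn: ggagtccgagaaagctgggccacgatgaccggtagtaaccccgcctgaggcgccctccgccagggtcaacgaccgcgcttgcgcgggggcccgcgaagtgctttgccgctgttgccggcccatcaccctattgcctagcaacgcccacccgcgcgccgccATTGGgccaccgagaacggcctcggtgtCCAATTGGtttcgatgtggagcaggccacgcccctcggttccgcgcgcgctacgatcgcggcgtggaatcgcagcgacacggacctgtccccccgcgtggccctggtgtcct

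The 14 RefSeq windows of 9 members were searched on both strands for 7 motifs, and no window for Scd1 was used here. CCAAT, the letters bound by NF-Y, was present in 9 of 14 windows, against 37.4% of all 32851 promoter windows of this length. The Pklr window holds 1, the Thrsp window 2 and the Fasn window 3, of which 1 pair overlaps on opposite strands in CCAATTGG, a stretch that also holds a CANNTG match. The general E box CANNTG was in 10 of 14 windows, against 72.3% of all windows, and its CACGTG form in 1 of 14, in Mlxipl, against 7.15%. The GC box GGGCGG was in 5 of 14, against 35.7%, and TCACNCCAC, a form of the sterol regulatory element, in 1 of 14, again in Mlxipl, against 1.24%. The perfect DR4 repeat, AGGTCA at both ends of a 4-base gap, is read by liver X and thyroid hormone receptors. It was in 0 of 14, against 0.0152%. The long capital run in the Pklr window matches CACGGG and CCCGTG held 5 bases apart, the glucose response element known from the rat liver pyruvate kinase gene. That motif was added after the sequence had been seen. The 1 of the 32851 windows (0.00304%) that holds it is this Pklr window itself, so the share is not a background to set it against. A match is a description of letters and was not tested for binding.

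Differences are in log2(signal + 16), αERKO minus WT or high-fat minus normal, with the standard error of the model, and a gene was called at a Benjamini-Hochberg adjusted p under 0.05 in limma over 12264 genes. Between genotypes on the high-fat diet 1 of the 10 members, Scd1, was called (higher in αERKO), against 1.98% of all genes. On the normal diet 0 of 10 were called between genotypes, against 1.22%, and 3 had an unadjusted p under 0.05, against 12.1% of all genes. The diet called 1 of 10 in αERKO livers, Pklr (higher on high-fat), against 0.481%, and 1 of 10 in WT livers, Scd1 (lower on high-fat), against 0.0734%. Averaged over both genotypes the diet called 3 of 10, Pklr and Thrsp higher and Scd1 lower, against 0.946%. Averaged over the diets, genotype called 0 of 10, against 4.32%, and 5 members had an unadjusted p under 0.05, against 19.6% of all genes.

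The same model over the 21558 probe sets kept takes in all 18 kept probe sets of the members. Between genotypes on the high-fat diet it called both of Scd1 (higher in αERKO), against 1.38% of all probe sets. For diet it called 1 of 18 in αERKO livers, of Pklr, against 0.199%. Averaged over both genotypes it called 5 for diet (both of Thrsp and 1 of Pklr higher, both of Scd1 lower), against 0.547%, and averaged over both diets 1 for genotype, of Scd1, against 3.41%. It called 0 of 18 between genotypes on the normal diet, against 0.756%, and 0 for diet in WT livers, against 0.0278%. The Scd1 call for diet in WT livers was thus lost over probe sets (adjusted p = 0.0527 for both of them). For the interaction it called 0, against 0%. At an unadjusted p under 0.05 in limma there were 5, 10 and 6 of the 18 in these 3 comparisons. Over all probe sets that count was not made, and over the 12264 genes it was 1482, 1015 and 728. Probe sets of the same gene are not separate evidence.

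**Figure D1:**
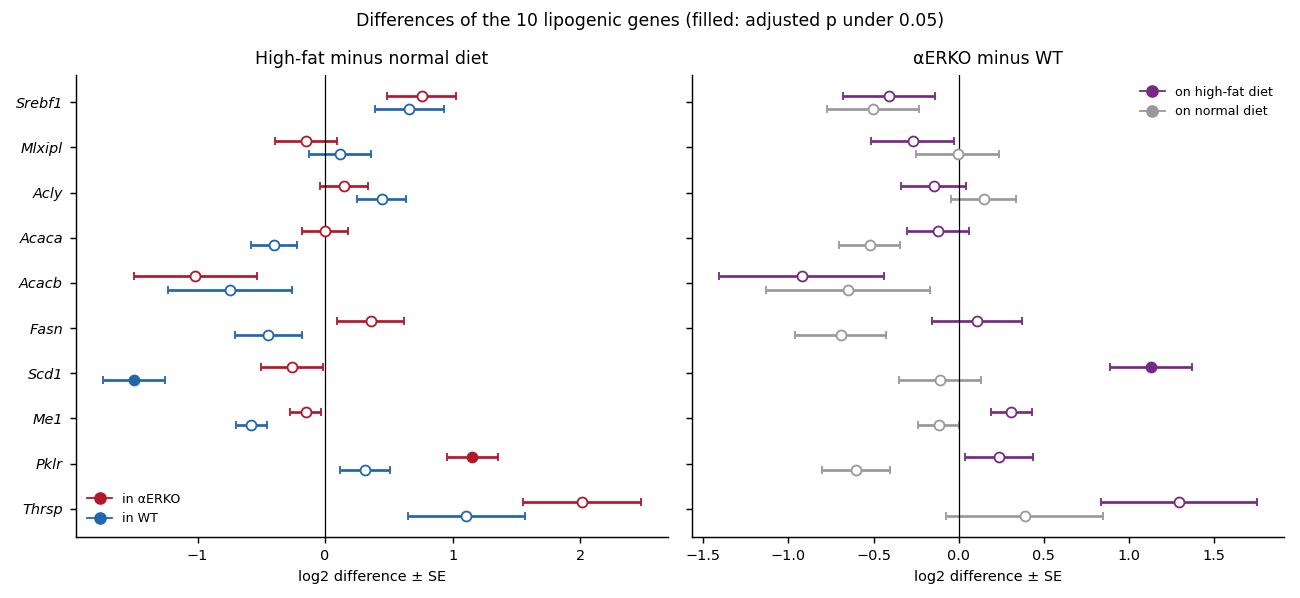
Log2 differences with standard errors of the 10 genes for diet (left, αERKO above WT within each gene) and genotype (right, high-fat above normal diet), from the brightest probe set of each gene, n = 3 arrays a group. Filled points passed an adjusted p of 0.05: Pklr for diet in αERKO livers, Scd1 for diet in WT livers and Scd1 for genotype on the high-fat diet.

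The members did not move as a block. The median log2 difference of the 10 was -0.008 for genotype on high-fat diet (-0.033 over all genes), -0.312 for genotype on normal diet (-0.052), 0.075 for diet in αERKO (0.017) and -0.142 for diet in WT (-0.005). Groups did not overlap for 3 members (all higher in αERKO) on the high-fat diet, against 22.5% of all genes. On the normal diet it was 3 members (all lower in αERKO), against 15.8%. For diet it was 3 members in αERKO (all higher on high-fat), against 16.7%, and 5 in WT (1 higher and 4 lower on high-fat), against 14.3%. Median centring of the arrays would move all genotype differences up by 0.142 on normal diet and 0.101 on high-fat diet, which is to be set against the genotype values below.

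**Figure D2:**
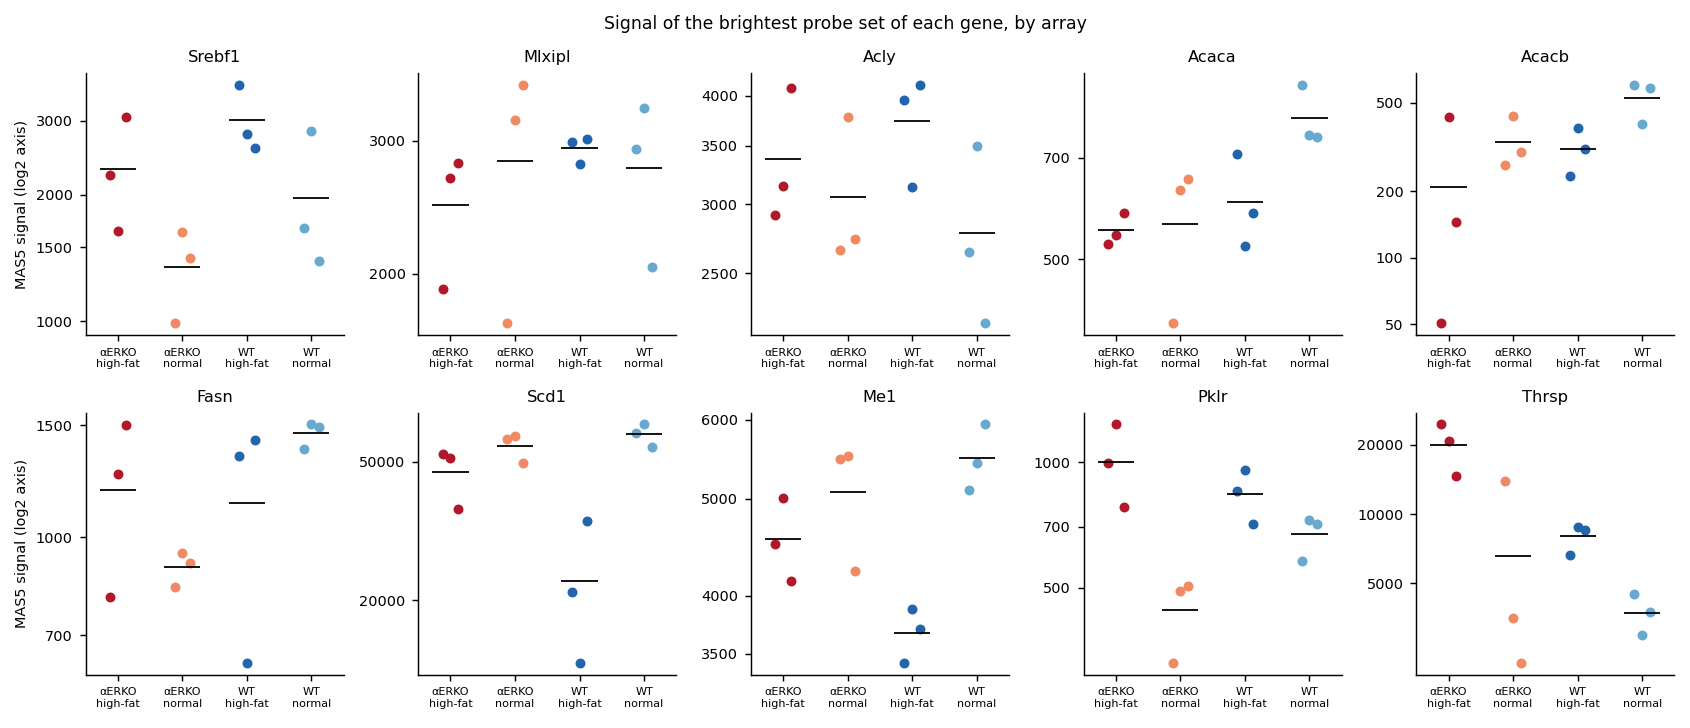
MAS5 signal (log2 axis, its own range in each panel) of the brightest probe set of each of the 10 genes. Points are arrays, 3 a group and in replicate order, and lines are group means. Scd1 is lowest in the WT high-fat arrays and Thrsp highest in the αERKO high-fat arrays.

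Srebf1 encodes SREBP-1, whose 1c form carries the insulin signal to lipogenic promoters. Its 1 probe set (1426690_a_at) gave signals of 2227, 1644 and 3055 in αERKO high-fat, 989.8, 1636 and 1412 in αERKO normal, 3646, 2795 and 2588 in WT high-fat, and 1672, 2834 and 1396 in WT normal livers. The αERKO high-fat values lay above the αERKO normal ones by a narrow margin, while WT normal replicate 2 reached into the WT high-fat range. The diet difference was 0.76 ± 0.27 in αERKO (adjusted p = 0.319) and 0.66 ± 0.27 in WT (adjusted p = 0.514), and 0.71 ± 0.19 over both (adjusted p = 0.111). Without WT normal replicate 2 that average was 0.86 and passed (adjusted p = 0.032). Between genotypes Srebf1 differed by -0.41 ± 0.27 on high-fat diet and -0.51 ± 0.27 on normal diet (adjusted p = 0.516 and 0.492).

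Mlxipl encodes ChREBP, the glucose-responsive activator of Pklr and the lipogenic enzymes. Signals of its probe set (1419185_a_at) were 1907, 2678 and 2807 in αERKO high-fat, 1719, 3194 and 3558 in αERKO normal, 2989, 2792 and 3022 in WT high-fat, and 2925, 3313 and 2041 in WT normal livers. The 4 groups overlapped. Its differences ran from -0.27 ± 0.24 (genotype on high-fat diet) to 0.12 ± 0.24 (diet in WT), with adjusted p of 0.664 and 0.942.

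Pklr encodes the liver and red cell pyruvate kinase, the last step of glycolysis. The brightest of its 3 probe sets (1438711_at) gave 998, 1234 and 780.1 in αERKO high-fat livers, against 331, 492 and 504 in αERKO normal livers. WT high-fat livers had 853, 960.2 and 713, against 579.8, 728 and 712 in WT normal livers. All αERKO high-fat values exceeded all αERKO normal ones, whereas the WT groups overlapped. Pklr rose 2.23-fold on the high-fat diet in αERKO livers (1.15 ± 0.20, adjusted p = 0.0225), and it differed by 0.31 ± 0.20 in WT livers (adjusted p = 0.724). The diet effect over both genotypes was 0.73 ± 0.14 (adjusted p = 0.027). On the normal diet αERKO livers lay below all WT livers (-0.61 ± 0.20, adjusted p = 0.22), and on the high-fat diet the difference was 0.24 ± 0.20 (adjusted p = 0.634).

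The call for Pklr in αERKO livers rested on few arrays. It was lost in 4 of 6 fits that left out 1 array (adjusted p = 0.0501 to 0.133 in those), and over both genotypes in 6 of 12 (adjusted p = 0.0528 to 0.0781). Without the 2 arrays with muscle transcripts, which are the highest αERKO high-fat and the lowest αERKO normal value, the difference was 0.81 (adjusted p = 0.297), and without the 4 arrays with pancreatic transcripts it was 0.96 (adjusted p = 0.144). Probe set 1421258_a_at gave 301, 480.5 and 269 in αERKO high-fat livers, against 109.8, 191 and 146 in αERKO normal livers, again without overlap (1.13 ± 0.27, adjusted p = 0.118 over the 21558 probe sets kept). The third, 1421259_at, was dimmer, at 48.8, 157 and 32.8 against 22.1, 22.7 and 20.6 in the same groups (1.11 ± 0.50, adjusted p = 0.506). In WT livers this probe set gave 157, 210.4 and 86 on the high-fat diet, against 28.1, 55.2 and 45.2 on the normal diet (1.46 ± 0.50, adjusted p = 0.477), without overlap and unlike the other 2. It was above the array median on 3 of 12 arrays, all of them high-fat, and so passed the filter only through the diet where it is high. Its diet differences and lack of overlap are therefore not independent of the filter.

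Acly encodes ATP citrate lyase, which releases cytosolic acetyl-CoA from citrate. Its brightest probe set (1439459_x_at, a suffix that marks probes able to match other transcripts) gave 2912, 3151 and 4086 in αERKO high-fat, 2656, 3782 and 2738 in αERKO normal, 3955, 3137 and 4111 in WT high-fat, and 2639.8, 3500.1 and 2188 in WT normal livers. Diet ranges overlapped in both genotypes, with differences of 0.15 ± 0.19 in αERKO (adjusted p = 0.854) and 0.44 ± 0.19 in WT (adjusted p = 0.54). Probe set 1451666_at gave 0.28 ± 0.17 in αERKO and 0.34 ± 0.17 in WT, and 1425326_at gave 0.19 ± 0.22 and 0.24 ± 0.22, so the sign for diet was the same in all 3 while none was called. The 3 dim Acly probe sets had signals between 2.39 and 122.

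Me1 encodes cytosolic malic enzyme, a source of NADPH. Its brighter probe set (1430307_a_at) gave 4509, 5016 and 4141 in αERKO high-fat livers, against 5482, 5524 and 4239 in αERKO normal livers. In WT livers it gave 3429, 3877 and 3702 on the high-fat diet, against 5101, 5434 and 5935 on the normal diet. The WT diets did not overlap, nor did the genotypes on the high-fat diet, where αERKO livers were above WT livers. The diet difference was -0.58 ± 0.12 in WT (adjusted p = 0.104), and the other probe set, 1416632_at, gave -0.56 ± 0.14 (adjusted p = 0.266), also without overlap between diets. In αERKO the diet differences of the pair were -0.15 ± 0.12 and -0.06 ± 0.14. Over both genotypes Me1 differed by -0.36 ± 0.09 (adjusted p = 0.0656), and without αERKO normal replicate 3 by -0.43 (adjusted p = 0.0295). Between genotypes Me1 differed on the high-fat diet by 0.31 ± 0.12 (adjusted p = 0.228). By 1416632_at that difference was 0.29 ± 0.14 (adjusted p = 0.38 over the probe sets kept), and the genotypes overlapped.

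Acaca and Acacb encode acetyl-CoA carboxylases 1 and 2. The first supplies malonyl-CoA for synthesis and the second is best known for malonyl-CoA that restrains mitochondrial fatty acid uptake. Acaca (1434185_at) gave 526, 542 and 584 in αERKO high-fat, 404, 628 and 653 in αERKO normal, 710.1, 522 and 584 in WT high-fat, and 892, 757 and 749.8 in WT normal livers. WT normal livers stood above both αERKO normal and WT high-fat livers without overlap. The genotype difference on normal diet was -0.52 ± 0.18 (adjusted p = 0.249) and the diet difference in WT -0.40 ± 0.18 (adjusted p = 0.585), against 0.0013 ± 0.18 in αERKO. The dimmer 1427595_at gave 88.5, 87.6 and 74.6 in αERKO high-fat livers, against 67.6, 47.6 and 58.4 in αERKO normal livers, and 51.6, 63.4 and 57 in WT high-fat livers, against 83.2, 90.7 and 133 in WT normal livers. Both diet pairs of that probe set were without overlap and opposite in sign (0.44 ± 0.32 in αERKO and -0.67 ± 0.32 in WT). The interaction was 1.11 ± 0.46 (adjusted p = 0.854). That probe set was above the array median on only 4 arrays, all of them αERKO high-fat or WT normal. It thus passed the filter only through the groups where it is high. Its opposite diet signs, lack of overlap and interaction are therefore not independent of the filter.

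Acacb (1427052_at) was the most scattered member. It gave 50.5, 430.4 and 146 in αERKO high-fat, 262, 436 and 301 in αERKO normal, 235, 386 and 309 in WT high-fat, and 601, 402 and 581 in WT normal livers. WT normal livers were above all WT high-fat livers, and αERKO high-fat livers spread from 50.5 to 430.4. The diet difference was -1.02 ± 0.48 in αERKO and -0.74 ± 0.48 in WT (adjusted p = 0.499 and 0.73), and genotype differed by -0.92 ± 0.48 on high-fat and -0.65 ± 0.48 on normal diet (adjusted p = 0.395 and 0.63). Without αERKO high-fat replicate 2, the highest of its group, the average diet difference was -1.23 (adjusted p = 0.0434) and the average genotype difference -1.14 (adjusted p = 0.0227). The other probe set, 1445754_at, was dim, at 7.06 to 77.5.

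Fasn encodes fatty acid synthase, which makes palmitate. Probe set 1423828_at gave 803, 1257 and 1500.2 in αERKO high-fat, 833, 943 and 910.2 in αERKO normal, 1340.5, 634 and 1423 in WT high-fat, and 1378, 1504 and 1491 in WT normal livers. On the normal diet all αERKO livers lay below all WT livers (-0.69 ± 0.27, adjusted p = 0.304). On the high-fat diet the genotypes overlapped (0.11 ± 0.27, adjusted p = 0.906), with αERKO replicate 1 and WT replicate 2 far below the others. Diet differences had opposite signs, 0.36 ± 0.27 in αERKO and -0.44 ± 0.27 in WT, and their difference was 0.80 ± 0.38 (adjusted p = 0.817).

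Scd1 encodes stearoyl-CoA desaturase 1, which turns stearate and palmitate into oleate and palmitoleate. By its brighter probe set (1415964_at) Scd1 gave 52753, 51368 and 36579 in αERKO high-fat livers, against 58246, 59284 and 49554 in αERKO normal livers. In WT livers it gave 21181, 13222 and 33766 on the high-fat diet, against 60662, 64080 and 55306 on the normal diet. WT high-fat livers stood below every other array, and the αERKO diets overlapped. On the high-fat diet Scd1 fell 2.83-fold in WT livers (-1.50 ± 0.24, adjusted p = 0.0382) and differed by -0.26 ± 0.24 in αERKO livers (adjusted p = 0.778). Scd1 was 2.19-fold higher in αERKO than in WT livers on the high-fat diet (1.13 ± 0.24, adjusted p = 0.03) and differed by -0.11 ± 0.24 on the normal diet (adjusted p = 0.893). The interaction was 1.24 ± 0.34 (adjusted p = 0.582).

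The second Scd1 probe set, 1415965_at, gave a different account of αERKO livers. It gave 1517, 1181 and 795 in αERKO high-fat, 3235, 2828 and 1824 in αERKO normal, 418, 243 and 535 in WT high-fat, and 1521, 1691 and 1051 in WT normal livers. Here the diets did not overlap in either genotype. They differed by -1.17 ± 0.30 in αERKO (adjusted p = 0.162) and -1.83 ± 0.30 in WT (adjusted p = 0.0527), and by -1.50 ± 0.21 averaged over both genotypes, a fall that passed (adjusted p = 0.00523). The genotypes did not overlap on either diet. The difference was 1.53 ± 0.30 on high-fat diet (adjusted p = 0.0195), 0.87 ± 0.30 on normal diet (adjusted p = 0.273) and 1.20 ± 0.21 over both (adjusted p = 0.00564), and the interaction was 0.66 ± 0.42 (adjusted p = 0.883). The brighter probe set ranked 74 from the top of all 45101 by mean signal, and whether its differences are compressed at that height was not tested.

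**Figure D3:**
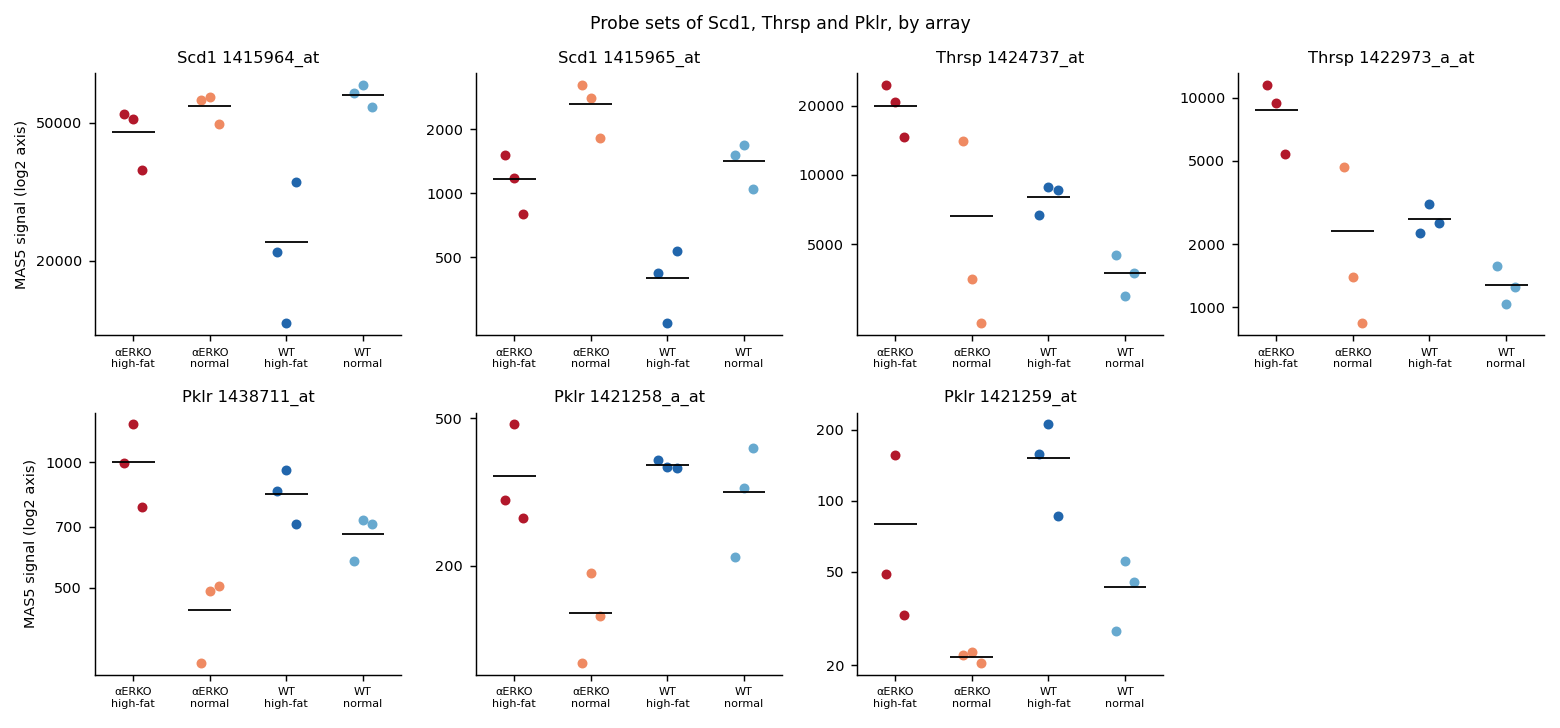
MAS5 signal (log2 axis, its own range in each panel) of the 7 kept probe sets of Scd1, Thrsp and Pklr. Points are arrays, 3 a group, and lines are group means. The Scd1 probe sets both put WT high-fat arrays lowest, but 1415965_at separates the αERKO diets and 1415964_at does not.

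Limits of the Scd1 calls were similar in each comparison. The difference between genotypes on high-fat diet ranged from 0.79 to 1.47 when 1 array was left out, and 4 of 6 such fits lost the call. The diet difference in WT ranged from -1.84 to -1.16, and 5 of 6 lost it, all but the fit without WT high-fat replicate 3. Over both genotypes 8 of 12 such fits lost the diet call.

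Thrsp encodes Spot 14, a thyroid hormone and carbohydrate responsive nuclear protein that accompanies fatty acid synthesis. The brightest probe set (1424737_at) gave 24556, 20781 and 14598 in αERKO high-fat livers, against 13967, 3541 and 2260.4 in αERKO normal livers. In WT livers it gave 6672, 8819 and 8555 on the high-fat diet, against 4479, 2983 and 3737 on the normal diet. The diets did not overlap in either genotype, and on the high-fat diet every αERKO liver was above every WT liver. Over both genotypes Thrsp rose 2.95-fold on the high-fat diet (1.56 ± 0.33, adjusted p = 0.0388). Within αERKO the difference was 2.01 ± 0.46 (adjusted p = 0.0841), within WT 1.11 ± 0.46 (adjusted p = 0.519), and between genotypes on the high-fat diet 1.29 ± 0.46 (adjusted p = 0.188). On the normal diet the genotypes overlapped (0.39 ± 0.46, adjusted p = 0.775).

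The other kept probe set of Thrsp, 1422973_a_at, gave 11496, 9474 and 5391 in αERKO high-fat livers, against 4663, 1394 and 836 in αERKO normal livers, and 2262, 3103 and 2532 in WT high-fat livers, against 1564, 1029 and 1241 in WT normal livers. The order of the groups was alike, with a diet difference of 2.24 ± 0.45 in αERKO (adjusted p = 0.0697) and 1.04 ± 0.45 in WT (adjusted p = 0.576), and a rise of 1.64 ± 0.32 over both (adjusted p = 0.0347). Its genotype difference on the high-fat diet was 1.68 ± 0.45 (adjusted p = 0.0894). The third, 1444166_at, was dim, at 9.71 to 145.

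The value of αERKO normal replicate 1, 13967, was the highest of its group for Thrsp, and that array was also among the arrays with pancreatic and with muscle transcripts and had the highest summed adipocyte signal. Without it the diet difference in αERKO was 2.78 (adjusted p = 0.000177). The average diet difference was called in 1 of 12 fits that left out an array, that without αERKO normal replicate 1 (1.94, adjusted p = 5.27e-05), and ranged from 1.29 to 1.67 in the other 11 (adjusted p = 0.0564 to 0.101).

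Because Thrsp, Scd1 and Fasn are also abundant in fat tissue, adipocyte markers were set beside these results. Of 8 markers, 6 were named on the array and 4 passed the filter, while Lep and Retn were dim and none was listed at 0. The summed signal of the 6 was 2581 to 4110.3 in αERKO high-fat, 2733 to 5601 in αERKO normal, 2098 to 3875 in WT high-fat and 1723 to 3865 in WT normal livers, so all 4 groups overlapped. Most of that sum came from Plin4 (626 to 2608 over the arrays) and Fabp4 (794 to 2603), against 15.1 to 160 for Adipoq. Whether the sum follows fat tissue in the samples was not tested. With the summed level as a covariate the diet difference of Thrsp was 2.22 in αERKO (adjusted p = 0.00978) and 1.62 over both genotypes (adjusted p = 0.00434). That of Scd1 in WT was -1.54 (adjusted p = 0.0105), and its genotype difference on high-fat diet 1.02 (adjusted p = 0.0264). Pklr in αERKO differed by 1.09 (adjusted p = 0.0165).

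**Figure D4:**
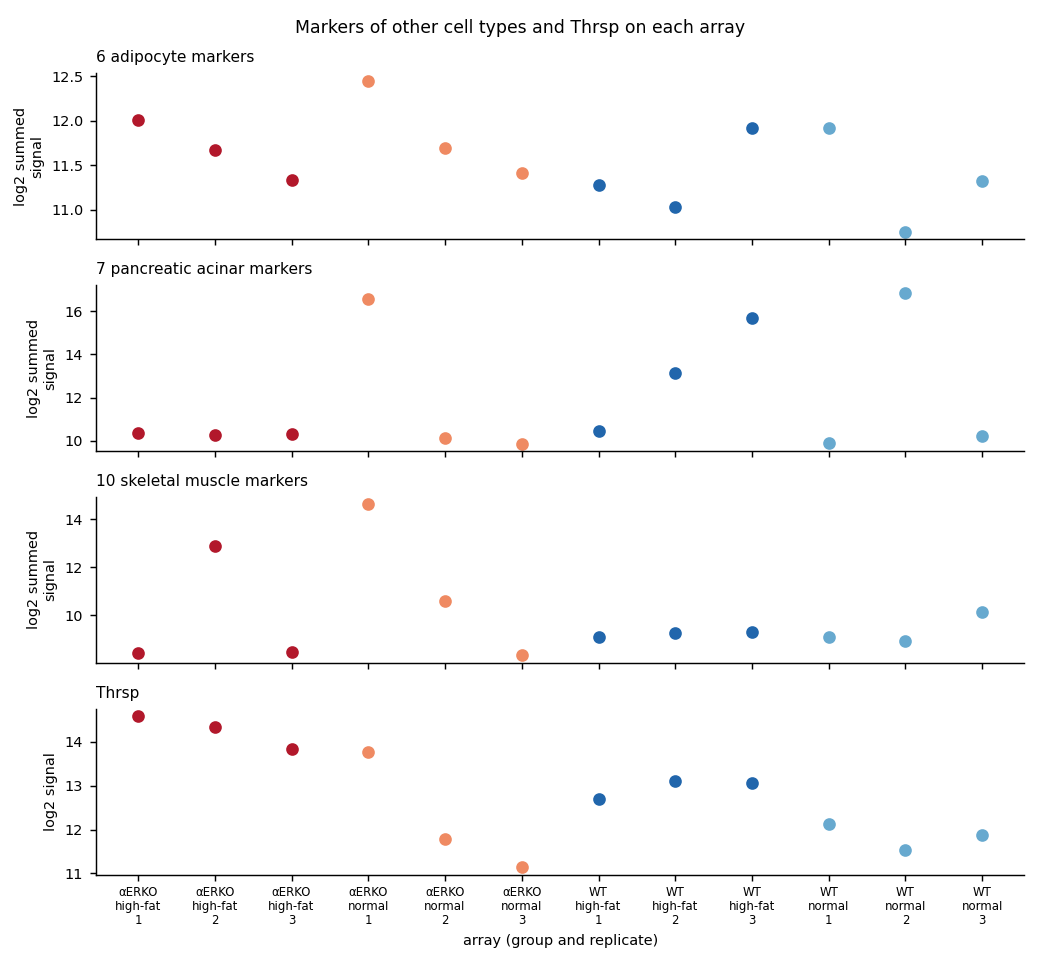
Log2 summed signal of adipocyte, pancreatic acinar and skeletal muscle markers (upper 3 panels) and log2 signal of Thrsp (lowest panel) on each of the 12 arrays. The array of αERKO normal replicate 1 is highest of all for adipocyte and muscle markers, and its Thrsp signal is the highest of its group.

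The 7 acinar markers measured (Prss2, Cela1, Cela2a, Cpa1, Cpb1, Ctrb1 and Cel) summed to 1226 to 1297 in αERKO high-fat, 933 to 96176 in αERKO normal, 1405 to 52092 in WT high-fat and 947 to 119613 in WT normal livers. The 10 muscle markers summed to 341 to 7648 in αERKO high-fat, 319.6 to 25228 in αERKO normal, 549.8 to 632 in WT high-fat and 486 to 1118 in WT normal livers. Leaving out the 4 arrays with pancreatic transcripts leaves 1 WT high-fat array, replicate 1, which is assumed to vary like the other groups. Against that array Scd1 differed by 1.13 between genotypes on high-fat diet (adjusted p = 0.0389) and by -1.45 between diets in WT (adjusted p = 0.117), and Thrsp by 1.55 between genotypes on high-fat diet (adjusted p = 0.0481), where the array left is the lowest of its group. Between diets in αERKO, with 2 normal arrays left, Thrsp differed by 2.78 (adjusted p = 0.00119). The 8 macrophage markers summed to 16483 to 19435 in αERKO high-fat, 14255 to 21334 in αERKO normal, 20400.0 to 27534 in WT high-fat and 21339 to 22773 in WT normal livers, so they were lower in αERKO than in WT livers on the high-fat diet without overlap. Of these markers Csf1r was called lower in αERKO over both diets (-0.40 ± 0.09, adjusted p = 0.0189) and Marco lower on the high-fat diet over both genotypes (-1.16 ± 0.21, adjusted p = 0.0192). For genotype over both diets all 8 differences were negative (median -0.317, against -0.046 over all genes). The fall of Marco with diet was not shared by the list. For diet over both genotypes 5 of the 8 were positive and 3 negative (median 0.036, against 0.002). The part of these markers in the results was not tested.

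Whether the diet response differed between genotypes is asked by the interaction, the diet difference in αERKO minus that in WT. It was called for 0 of 10 members and for 0% of the 12264 genes, while an unadjusted p under 0.05 was reached by 3 members, against 5.94% of all genes. These were Scd1 (1.24, given above), Pklr (0.84 ± 0.28, adjusted p = 0.786) and Me1 (0.43 ± 0.17, adjusted p = 0.786), each by its brightest probe set. The others of Pklr gave 0.85 ± 0.38 (1421258_a_at) and, with the opposite sign, -0.35 ± 0.71 (1421259_at). The other of Scd1 gave 0.66 ± 0.42 and the other of Me1 0.50 ± 0.20. For 7 of 10 members the interaction was positive, and the median was 0.414, against 0.017 over all genes. The interaction of Thrsp was 0.91 ± 0.65 (adjusted p = 0.872) and that of Srebf1 0.10 ± 0.38 (adjusted p = 0.986). A response in 1 genotype alone was thus not shown for any of the 10.

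Genes that supply carbon and NADPH to the pathway were measured for 11 of 14 listed. On the high-fat diet 1 was higher and 0 lower in αERKO than in WT livers, and on the normal diet 0 were higher and 1 lower, against 1.98% and 1.22% of all genes called in these comparisons. Taldo1, transaldolase of the pentose phosphate pathway, averaged 4105 ± 369 in αERKO high-fat livers, against 2311 ± 107 in WT high-fat livers (0.82 ± 0.11, adjusted p = 0.00072, lost in 1 of 17 other settings). Tkfc, which phosphorylates glyceraldehyde from fructose, averaged 515 ± 145 in αERKO normal livers, against 1016 ± 135 in WT normal livers (-0.98 ± 0.20, adjusted p = 0.0325), and 11 of 17 other settings lost that call. On the high-fat diet Tkfc differed between genotypes by -0.53 ± 0.20 (adjusted p = 0.226). Averaged over both diets the difference was -0.75 ± 0.14 (adjusted p = 0.00853, lost in 1 of 22 other settings). Over both diets genotype called 2 of the 11 higher in αERKO and 1, Tkfc, lower, against 4.32% of all genes. Taldo1 was higher in αERKO by 0.62 ± 0.08 (adjusted p = 0.0002, kept in 22 of 22 other settings). On the normal diet its genotypes did not overlap (0.42 ± 0.11, adjusted p = 0.0905). Acss2, cytosolic acetyl-CoA synthetase, was higher in αERKO over both diets by 0.37 ± 0.09 (adjusted p = 0.0363, lost in 14 of 22 other settings). By limma diet called 0 of 11 in αERKO, against 0.481% of all genes, and 0 of 11 in WT, against 0.0734%. An unadjusted p under 0.05 was reached by 3 in αERKO and 2 in WT, against 1265 and 1015 of the 12264 genes. Their median diet difference was 0.162 in αERKO (0.017 over all genes) and -0.036 in WT (-0.005).

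Of 22 upstream regulators, among them the liver X receptor Nr1h3, the SREBP escort Scap, the Insig retention proteins, Mlx, Usf1 and insulin signalling genes, 21 were measured and 0 were called in any comparison by limma. The smallest p-values belonged to Usf2, an E box factor (-0.33 ± 0.10, adjusted p = 0.0667), and Irs1, an insulin receptor substrate (-0.53 ± 0.16, adjusted p = 0.0748), both for αERKO minus WT over both diets. For that average 5 of 21 had an unadjusted p under 0.05, against 19.6% of all genes.

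Of 15 downstream and partner genes, 14 were measured (G6pc1 was not named by a single symbol). On the high-fat diet 1 was higher and 1 lower in αERKO than in WT livers, against 1.98% of all genes. Averaged over both diets 1 was higher and 2 were lower in αERKO, against 4.32%. Diet called 1 (lower) in αERKO, against 0.481%, and 0 in WT by limma, against 0.0734%. In WT 4 of the 14 had an unadjusted p under 0.05, as did 1015 of the 12264 genes. Cidec, a lipid droplet protein, averaged 997 ± 374 in αERKO high-fat livers, against 159 ± 93.6 in WT high-fat livers (2.60 ± 0.47, adjusted p = 0.00882, lost in 5 of 17 other settings with adjusted p up to 0.0556). Txnip, a glucose-induced target of ChREBP, averaged 1961 ± 167 in αERKO high-fat livers, against 2779 ± 179 in αERKO normal livers (-0.50 ± 0.10, adjusted p = 0.0466, lost in 15 of 17 other settings) and against 3543 ± 114 in WT high-fat livers (-0.85 ± 0.10, adjusted p = 0.000291, lost in 1 of 17). Its diet difference in WT was -0.004 ± 0.10, and the interaction was -0.50 ± 0.14 (adjusted p = 0.611). On the normal diet the genotypes differed by -0.35 ± 0.10 for Txnip (adjusted p = 0.133, without overlap). For Cidec they differed there by 0.76 ± 0.47 (adjusted p = 0.566, with overlap). Over both diets genotype was called for Txnip (-0.60 ± 0.07, adjusted p = 0.000137) and Cidec (1.68 ± 0.33, adjusted p = 0.0101). Both of these calls were kept in 22 of 22 other settings. In αERKO livers the high-fat diet was called lower for Txnip and higher for Pklr, and 15 of 17 and 9 of 17 other settings lost these calls. A part of ChREBP in them was not tested.

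Elovl6, which elongates palmitate to stearate, averaged 864 ± 228 in αERKO high-fat, 1053 ± 61.8 in αERKO normal, 974 ± 44.4 in WT high-fat and 1676 ± 146 in WT normal livers. Over both genotypes it fell by 0.54 ± 0.11 on the high-fat diet (adjusted p = 0.0383), and over both diets it differed by -0.43 ± 0.11, lower in αERKO (adjusted p = 0.0446). Acsl3, an acyl-CoA synthetase of lipid droplets, rose by 0.69 ± 0.14 on the high-fat diet over both genotypes (adjusted p = 0.0327). For Acsl3 and for diet in Elovl6, 15 of 22 other settings lost the call, and for genotype in Elovl6 17 of 22.

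**Figure D5:**
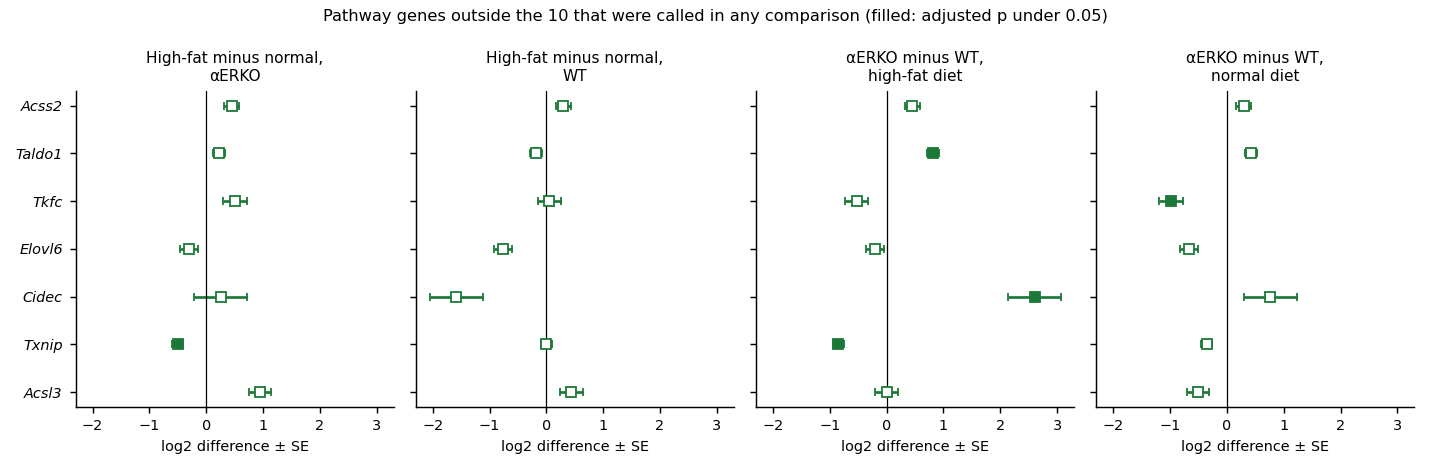
Log2 differences with standard errors of the 7 pathway genes outside the 10 that were called in any comparison, for diet in αERKO and WT and for genotype on high-fat and normal diet, n = 3 arrays a group. Filled squares passed an adjusted p of 0.05, as Cidec, Txnip and Taldo1 did between genotypes on the high-fat diet.

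Across the 12 arrays the members followed their common mean to different degrees. Each gene's log2 values were centred and averaged over the 10, and the Pearson correlation of a member with that average, which contains it, ran from 0.076 for Me1 and 0.144 for Scd1 to 0.572 for Pklr and 0.735 for Fasn. Among genes outside the set the 5 most alike were Flrt1 (r = 0.885), Stau1 (0.829), Grid2ip (0.816), Hmgxb3 (0.814) and Zbtb12 (0.811). These are descriptions over arrays that share 4 groups, and the 5 were picked as the highest of all genes tested.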

How the data were processed

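Liver RNA was extracted in Trizol, cleaned on columns with DNase and labelled by a 3' IVT method, per the labels' protocols. Signals were made with MAS5 in Affymetrix Expression Console, per the submitters' processing notes, which name no version. For each probe set and array the authors deposited a linear intensity. No detection calls, scanner files or scan dates were used here, and 0 pairs of arrays were identical. The number of arrays limits the precision (median standard error of a difference between 2 groups 0.202).

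Of 45101 probe sets, 34958 had 1 symbol in the platform annotation, updated through a RefSeq gene table. Each of 18194 genes was represented by its brightest probe set, and 12264 passed the filter. One limma model (limma 3.58.1, R 4.3.3, intensity trend, 8 residual and 5.85 prior degrees of freedom) with 4 group means was fitted to all 12 arrays, and again to the 21558 probe sets kept. Tests were two-sided. MAS5 values scatter near background, and the pseudocount of 16 understates differences of dim genes.

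The members, lists, motifs and alternatives were chosen with earlier results of these data known, so they are not independent evidence. All members were named, with the genes of the 3 pathway lists called in any of the 7 comparisons, or the 2 with the smallest p where such a list had none, cell markers as lists, with the genes of the list that differed most between arrays, and the 5 genes most like the members' mean. The markers Alb, Csf1r and Marco were named after their values were seen. The differential test was checked on simulated data. Replicate numbers do not pair samples: correlations of same-numbered deviations ran from -0.296 to 0.212.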

Additional observations from a re-analysis of the deposited data

How the results depend on the processing

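No result changed its direction under the alternatives where it was called, but most calls lay close to the threshold, and sizes were steadier than adjusted p-values. With median centring of the arrays, the numbers of genes called were 94 (59.6% higher in αERKO, against 48% with the deposited scaling) for genotype on normal diet, 116 for genotype on high-fat diet, 22 for diet in αERKO, 1 for diet in WT (0% higher, against 22.2%), 313 for genotype over both diets (73.2% higher, against 47.7%) and 26 for diet over both genotypes (80.8% higher, against 66.4%). The main counts were 150, 243, 59, 9, 530 and 116 in that order. Median centring ended the calls of Scd1 between genotypes on high-fat diet (1.23), for diet in WT (-1.45) and for diet over both genotypes (-0.85), and likewise of Pklr (0.76) and Thrsp (1.59). Without the intensity trend the counts were 83, 116, 12, 0 (938 genes at an unadjusted p under 0.05 in limma), 266 and 27, and Scd1 (1.13, -1.50 and -0.88), Pklr (1.15 in αERKO and 0.73 over both genotypes) and Thrsp (1.56) kept their sizes without a call.

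Without the 4 arrays with pancreatic transcripts the counts were 80, 60, 18, 0 (907 at an unadjusted p under 0.05), 182 and 27, with WT high-fat reduced to 1 array that is assumed to vary like the other groups, and Scd1 in WT (-1.45) and Pklr in αERKO (0.96) and over both genotypes (0.68) lost the call. Without the 2 with muscle transcripts they were 85, 119, 16, 14, 296 and 40, and Scd1 between genotypes (1.05) and over both genotypes (-0.90) and Pklr in αERKO (0.81) and over both genotypes (0.56) lost it. With only the groups compared the counts were 71 for genotype on normal diet and 22 for diet in αERKO, and Scd1 (1.13 between genotypes and -1.50 for diet) and Pklr (1.15) lost it. With the mean of all probe sets of a gene 26 genes were called for diet in αERKO, Scd1 in WT was -1.67 and Pklr was 1.13 in αERKO and 0.91 over both genotypes, none of these called. With no filter on dim probe sets 5 genes were called for diet in WT, and Scd1 there (-1.50) and Thrsp over both genotypes (1.56) were not. More genes entered both the model and the adjustment in that fit. Quantile normalization gave -1.32 for Scd1 in WT, not called, and the adipocyte covariate raised the count for diet in WT to 15. With the replicate number as a block, Scd1 lost its calls between genotypes on high-fat diet (1.13, adjusted p = 0.0515) and for diet in WT (-1.50, adjusted p = 0.0755), the counts were 131, 210, 51, 6, 479 and 121, and the other 4 member calls held, although the numbers do not pair the samples. The cause of a lost call was not tested.

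Leaving out 1 array at a time gave 85 to 118 genes for genotype on normal diet, 108 to 304 for genotype on high-fat diet, 13 to 45 for diet in αERKO, 2 to 11 for diet in WT, 321 to 566 for genotype over both diets, 52 to 154 for diet over both genotypes and 0 to 2 for the interaction. In these fits Scd1 ranged from 0.79 to 1.47 between genotypes, -1.84 to -1.16 for diet in WT and -1.05 to -0.71 for diet over both genotypes. Pklr ranged from 0.96 to 1.32 in αERKO and 0.64 to 0.82 over both genotypes, and Thrsp from 1.29 to 1.94 over both genotypes. Of 64 member results not called, 55 stayed uncalled under each setting run. Signal over background limits the dim probe sets of Acly, Acacb and Thrsp, which were not tested.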
